A study of Mus musculus with 4 samples.

Results

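Suprabasal keratinocytes are the cells of the epidermis that have left the basal layer and make the differentiation keratins Krt1 and Krt10. They come from 4 droplet libraries of mouse back skin and were chosen by measured counts of unique molecular identifiers (UMIs), each of which stands for 1 captured RNA molecule. A cell entered with at least 200 detected genes, at most 10% mitochondrial UMIs and a UMI of at least 4 of the 8 keratinocyte genes Krt5, Krt14, Perp, Dsp, Sfn, Trp63, Pkp1 and Cdh1. It had to show more of these than of the 8 fibroblast genes Pdgfra, Dpt, Lum, Mfap5, Serpinf1, Col1a2, Dcn and Pcolce, and at least as many Krt1 and Krt10 UMIs as Krt5 and Krt14 UMIs. Cells with 5 or more UMIs per 10000 of Krt79, a keratin of the upper hair follicle, and cells with 4 or more UMIs of the cycling genes Mki67, Top2a, Ube2c and Birc5 were left out. The rule was met by 2381 cells of the 22819 that passed the cell filter and of 23455 barcodes in all.

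The study set Ovol1 null skin beside control skin, each with and without imiquimod, to look for molecular differences between them. Its 4 groups are 1 library each: labelled Ovol1 null with imiquimod (232 suprabasal cells), labelled Ovol1 null untreated (919 cells), control with imiquimod (698 cells) and control untreated (532 cells). All mice are given as strain CD1, and the labels give 7 to 8 weeks as the age at which a single dose of 62.5 mg of 5% imiquimod cream was put on the shaved back. Cells were sorted by FACS before capture, with 10000 cells per library and 50000 reads per cell aimed at. The sort gate, the number of mice in a library, the time from cream to collection and the deleted part of Ovol1 are not given in the labels used here.

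In mouse back skin, keratinocytes leave the basal layer, stop dividing and switch from Krt5 and Krt14 to Krt1 and Krt10 as spinous cells, then build the cornified envelope and the lipid barrier as granular cells. Ovol1 encodes a zinc finger transcription factor that is known to be made as keratinocytes differentiate and to promote their exit from the cell cycle. Imiquimod activates Toll-like receptor signalling, and on mouse skin it is used to model psoriasis. In that model suprabasal cells are known to make alarmins, chemokines and the wound keratins Krt6, Krt16 and Krt17.

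Since each group is a single library, groups were not tested against each other, and no p-value or standard error is given. Levels are UMIs summed over the suprabasal cells of a library and scaled to 1000000 per library (CPM), and values in parentheses after a ratio or share are exact 95% intervals that cover counting error only, not the spread between mice. A gene counts as measured in a comparison when its UMIs over the pair of libraries reach 20, and is called higher or lower where the ratio of CPM was at least 2 and its interval lay on one side of 1. A gene with few or no UMIs in a library of a pair could be measured only through the other library, which fixed its direction. Counts of called members in lists with such genes are a description. Depth was unequal: suprabasal cells had a median of 17554.5 UMIs in the labelled-null imiquimod library, against 7141 in labelled-null untreated, 8002 in control imiquimod and 6751 in control untreated cells. The sums behind each level were 4112965, 6758724, 5732742 and 3760311 UMIs in that order. The shallowest kept cell had 3039 UMIs in the labelled-null imiquimod library and 1413 to 1456 UMIs in the other 3 libraries. Among the kept cells 243 barcode sequences occurred in 2 or more libraries, and 3 did so among the suprabasal cells.

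RNA of fibroblasts was present in suprabasal cells and moved with treatment: 10 fibroblast markers summed to 1001 CPM in labelled-null imiquimod and 5334 CPM in labelled-null untreated cells, and to 1707 CPM in control imiquimod and 4357 CPM in control untreated cells. Fibroblasts themselves held 45532 CPM of these markers in labelled-null imiquimod and 105660 CPM in labelled-null untreated skin. In control skin they held 49390 CPM with imiquimod and 123060 CPM untreated. The level in fibroblasts was thus also lower with imiquimod in both pairs. At least 4 of the 8 fibroblast genes of the rule were seen in 23.7% of suprabasal cells in the labelled-null imiquimod library, 38.1% in labelled-null untreated, 24.8% in control imiquimod and 21.6% in control untreated cells. The doublet caller marked 1.90%, 0.113%, 1.53% and 1.94% of kept cells in the same order.

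Suprabasal cells made up 12.9% (11.3 to 14.5) of the 1805 keratinocytes of the labelled-null imiquimod library, against 32.3% (30.6 to 34.1) of 2843 in labelled-null untreated skin. In control skin they were 23.9% (22.3 to 25.4) of 2926 keratinocytes with imiquimod and 26.6% (24.7 to 28.6) of 2002 untreated. The rule, the sort and the depth of each library set these shares, and they are a description. The labelled-null imiquimod library also had the highest share of keratinocytes with 4 or more cycling UMIs, 15.7%, against 3.98% in labelled-null untreated, 3.01% in control imiquimod and 4.30% in control untreated keratinocytes.

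The line between suprabasal and basal cells cut a continuous range. Krt1 and Krt10 made up 50 to 60% of the UMIs of the 4 keratins in 38, 67, 53 and 35 cells just inside the line, and 40 to 50% in 29, 39, 49 and 19 cells just outside it, in the order labelled-null imiquimod, labelled-null untreated, control imiquimod and control untreated. The median of this keratin share was 87.5%, 90.3%, 94.9% and 89.3% in that order, and 2 control untreated cells had no UMI of the 4 keratins. At the other lines, 87 members had exactly 4 keratinocyte genes while 52 cells with 3 stayed out, 133 members had 2 to 5 Krt79 UMIs per 10000 while 32 cells at 5 to 10 stayed out, and 7 cells stayed out for cycling UMIs. Basal genes were present in the class: the median cell had 6.90, 15.9, 2.78 and 17.4 Krt5 UMIs per 10000 and 22.4, 3.05, 4.52 and 0.922 Krt14 UMIs per 10000 in the same order.

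The 5 markers of the class were high in all 4 libraries, and the label of the class fits them with 1 exception in 1 library, Krt77. Krt1, a rule gene that pairs with Krt10 in the keratin filaments of spinous cells (chr15:101845426-101850794, minus strand, GRCm38), had 14647 CPM with imiquimod and 6264 CPM untreated in the labelled-null libraries. In control cells, Krt1 had 6114 CPM with imiquimod and 5818 CPM untreated. Krt10, also a rule gene (chr11:99385254-99389364, minus strand), had 19205 CPM in labelled-null imiquimod cells, 14147 CPM in labelled-null untreated cells, 12422 CPM in control imiquimod cells and 14934 CPM in control untreated cells. Both are descriptions of what the rule chose, and Krt1 was highest in labelled-null imiquimod cells. Krtdap, a secreted protein of differentiating keratinocytes (chr7:30787896-30791097, plus strand), had 18616 CPM with imiquimod and 11522 CPM untreated in the labelled-null libraries. In control cells, Krtdap had 13722 CPM with imiquimod and 12327 CPM untreated. Sbsn, which encodes suprabasin, had 4636 CPM in labelled-null imiquimod cells, 2073 CPM in labelled-null untreated cells, 2717 CPM in control imiquimod cells and 2191 CPM in control untreated cells. Keratinocytes with 5 or more Krt79 UMIs per 10000 held 4968, 3123, 3593 and 3594 CPM of Sbsn in that order, more than suprabasal cells in each library. Of Krtdap they held 19459, 5057, 11829 and 5676 CPM, more than suprabasal cells in the labelled-null imiquimod library only. Sbsn was 2.24-fold (2.19 to 2.29) higher in labelled-null imiquimod than labelled-null untreated suprabasal cells. Krt77, a type II keratin next to Krt1 on the chromosome (chr15:101858731-101869705, minus strand), went the other way, with 348 CPM with imiquimod and 1305 CPM untreated in the labelled-null libraries. In control cells, Krt77 had 1365 CPM with imiquimod and 1479.9 CPM untreated. It was 3.75-fold (3.54 to 3.96) lower in labelled-null imiquimod than in labelled-null untreated cells and 3.92-fold (3.70 to 4.15) lower than in control imiquimod cells. With each cell thinned to 2000 UMIs, 20.3% (15.3 to 26.0) of 232 labelled-null imiquimod cells had a Krt77 UMI, against 55.1% (51.8 to 58.4) of 906 labelled-null untreated, 57.5% (53.7 to 61.2) of 689 control imiquimod and 64.3% (59.997 to 68.4) of 526 control untreated cells. Thinned fibroblasts, which should lack Krt77, showed it in 0.280%, 6.40%, 6.94% and 1.73% of cells in that order, at median depths of 8047, 6164, 4445.5 and 6805.5 UMIs before thinning. Mt4, the metallothionein of stratified epithelia (chr8:94137197-94139031, plus strand), followed Krt77 with 580.1 CPM in labelled-null imiquimod cells, 2140.2 CPM in labelled-null untreated cells, 1759.9 CPM in control imiquimod cells and 1907 CPM in control untreated cells. It was 3.69-fold (3.53 to 3.85) lower in the first of these than in the second.

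Ovol1 RNA (chr19:5549136-5560646, minus strand) was present in both libraries labelled Ovol1 null and was highest in 1 of them. It had 214 CPM with imiquimod and 56.4 CPM untreated in the labelled-null libraries. In control cells, Ovol1 had 41.7 CPM with imiquimod and 40.4 CPM untreated. The UMIs behind these levels were 882, 381, 239 and 152 UMIs in the order labelled-null imiquimod, labelled-null untreated, control imiquimod and control untreated. The labelled-null untreated and control untreated libraries differed by 1.39-fold (1.15 to 1.69), and the labelled-null imiquimod library was 3.80-fold (3.37 to 4.30) above labelled-null untreated and 5.14-fold (4.45 to 5.96) above control imiquimod cells. The libraries hold tags from the 3′ end of transcripts, which check nothing where the deletion lies elsewhere in the gene, so the libraries are called by their labels throughout. Thinned to 2000 UMIs, 28.9% (23.1 to 35.2) of labelled-null imiquimod suprabasal cells had an Ovol1 UMI, against 9.38% (7.56 to 11.5) of labelled-null untreated, 7.26% (5.43 to 9.46) of control imiquimod and 5.89% (4.04 to 8.26) of control untreated cells, and 0.176 to 0.747% of fibroblasts. In each library suprabasal cells had more Ovol1 than basal keratinocytes, 3.83, 3.89, 1.56 and 4.25-fold in the same order of libraries. Keratinocytes with 5 or more Krt79 UMIs per 10000 held 168, 98.2, 55.9 and 59.2 CPM, so Ovol1 was higher there than in suprabasal cells in the 3 libraries other than labelled-null imiquimod.

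**Figure D1:**
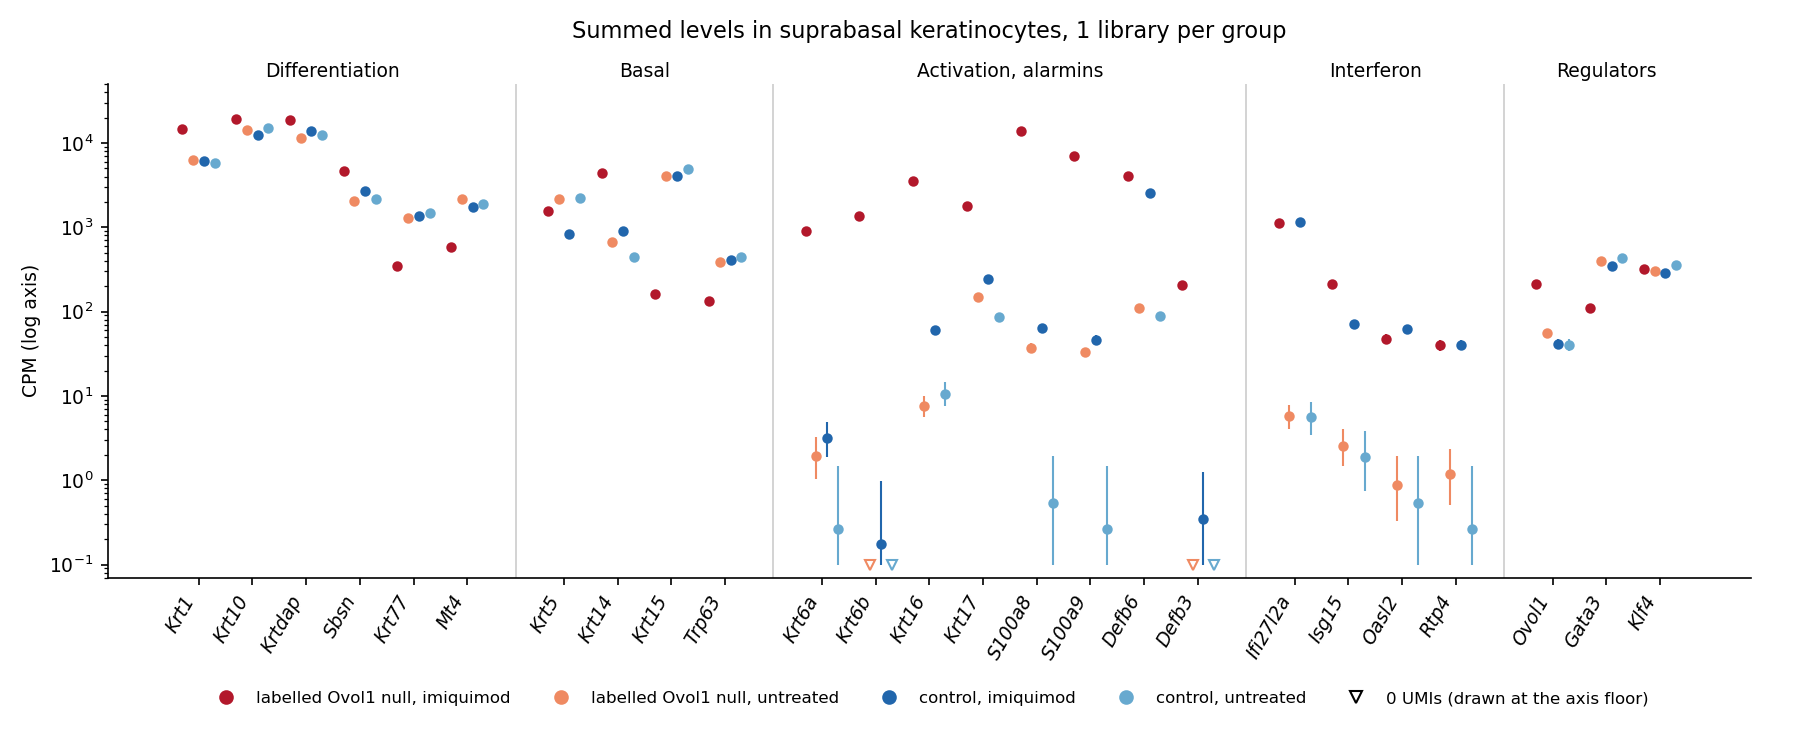
Summed level of 25 genes in suprabasal keratinocytes of the 4 libraries, in CPM on a log axis, with exact 95% Poisson intervals (counting error only, smaller than most points, and cut off at the axis floor). Open triangles mark genes with 0 UMIs. Krt6b and Defb3 stand at 1378 and 208 CPM in labelled-null imiquimod cells and at or near 0 in the other 3 libraries, while Ifi27l2a stands at 1114 CPM in labelled-null imiquimod and 1161 CPM in control imiquimod cells.

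What the class shares beyond the rule was read against basal keratinocytes, which met the same criteria with Krt1 and Krt10 below Krt5 and Krt14. Since this contrast is the one the rule made, it is a description. Of 10299 genes measured in all 4 libraries, 207 (2.01%) were at least 2-fold higher in suprabasal cells in each library and 442 (4.29%) at least 2-fold lower in each. Hal, the enzyme that turns histidine into urocanic acid, was 24.8, 22.3, 20.5 and 29.2-fold higher in labelled-null imiquimod, labelled-null untreated, control imiquimod and control untreated cells. Krt77 was 120.2, 23.1, 19.4 and 33.7-fold higher in the same order, and Ly6g6c, which encodes a GPI-anchored Ly6 protein, 12.1, 21.3, 15.5 and 44.4-fold. So Krt77 kept a suprabasal preference in the library where its level was lowest. The other genes with the highest smallest ratio were Krt78, Spink4, the glutathione transferases Gsta1 and Gsta2, Tesc, Mt4, the protease inhibitor Serpinb12, the fucosyltransferase Fut2 and the lipoxygenase Alox12. Lowest against basal cells were Ptn, the growth factor pleiotrophin, with 0.0185 to 0.0383 times the basal level, and Dlk2, a Notch ligand-like protein, with Angptl7, Enpp1, Chat, Ctnnal1, Vsnl1 and Fam101b. Of the gene lists read here, spinous differentiation had 9 of 13 measured members higher in all 4 libraries, the granular layer 5 of 10, barrier lipid synthesis 6 of 17 and tight and adherens junctions 4 of 15. The list of basal layer and basement membrane adhesion had 9 of 13 members lower, and S phase 9 of 16. Among the regulators, Grhl3, a grainyhead factor of barrier formation, was 2.70, 8.93, 6.44 and 7.60-fold above basal cells in the order above, and Zfp750, a zinc finger factor of late differentiation, 3.45, 4.95, 4.44 and 8.23-fold.

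Cells within the class differed along the keratin share, which was split into 50 to 75%, 75 to 90% and 90 to 100%. These bins held 74, 49 and 109 labelled-null imiquimod cells, 193, 263 and 463 labelled-null untreated, 133, 124 and 441 control imiquimod and 121, 149 and 260 control untreated cells. The share is made of rule genes, so levels along it are a description. Krt14, part of the share, had 4439, 662, 896 and 447 CPM in suprabasal cells in that order of libraries. The same bin therefore need not hold the same stage of differentiation in different libraries. Krt77 had 22.1, 76.6 and 678 CPM from the lowest to the highest bin in labelled-null imiquimod cells, 186, 500.2 and 2149 CPM in labelled-null untreated, 281, 580.4 and 1829 CPM in control imiquimod and 334, 572 and 2436 CPM in control untreated cells. Krt77 was thus higher in each further bin of each library, and lower in labelled-null imiquimod cells than in the same bin of any other library. Krtdap had 15890.3, 19408 and 20012 CPM in labelled-null imiquimod cells, 7742, 11157 and 13129.7 CPM in labelled-null untreated, 8762, 11105 and 15612 CPM in control imiquimod and 7440.0, 10400.2 and 15403 CPM in control untreated cells. The cells nearest the basal line in the first library held more than the cells farthest from it in labelled-null untreated, and about as much as those in the control libraries. Counting intervals of the lowest labelled-null imiquimod bin (15671 to 16111.5 CPM) and the highest control imiquimod bin (15487 to 15737 CPM) overlapped. Fabp5, an epidermal fatty acid binding protein, had 8492, 7671 and 7431 CPM in labelled-null imiquimod cells, 329.6, 476 and 736 CPM in labelled-null untreated, 442, 801 and 1339 CPM in control imiquimod and 265, 295 and 705 CPM in control untreated cells. Its gradient towards the highest bin in 3 libraries was not seen in labelled-null imiquimod cells. The wound keratin Krt6a had 1392, 1433 and 353 CPM in labelled-null imiquimod cells, Krt16 4173, 4813 and 2621 CPM and S100a8 11674, 19498 and 13118 CPM. Sprr2d, a small proline-rich envelope protein, had 134, 291 and 339 CPM there and 45.3, 33.4 and 89.99 CPM in control imiquimod cells. Krt15, a basal keratin, had 106, 371 and 101 CPM in labelled-null imiquimod cells, 5831, 4425 and 3162 CPM in labelled-null untreated, 5809, 4705 and 3399.6 CPM in control imiquimod and 7714, 5829.7 and 3285 CPM in control untreated cells. In the 75 to 90% bin of labelled-null imiquimod cells, 260 of the 324 Krt15 UMIs were in 1 cell.

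**Figure D2:**
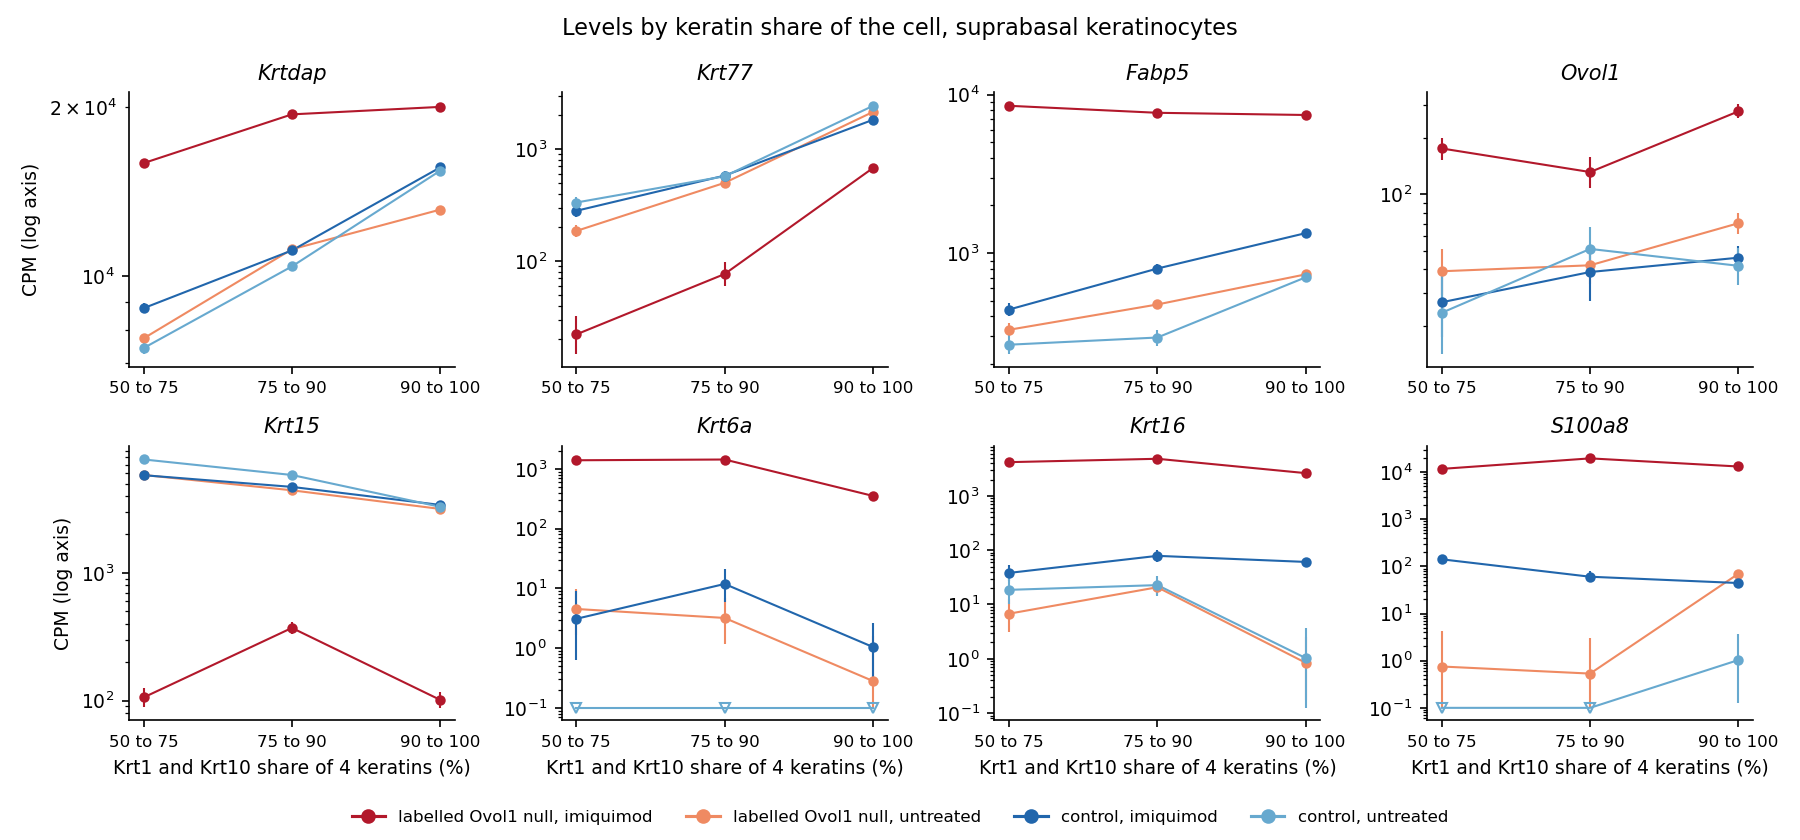
Level of 8 genes (CPM, log axis, exact 95% Poisson intervals) in suprabasal cells by the share of Krt1 and Krt10 among the UMIs of Krt1, Krt10, Krt5 and Krt14, for the 4 libraries. Open triangles mark 0 UMIs, drawn at 0.1. Krt77 is higher in each further bin of each library, from 22.1 to 678 CPM over the bins of labelled-null imiquimod cells, while S100a8 is at 11674 CPM or more in all 3 bins of that library.

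In labelled-null skin, suprabasal cells of the imiquimod library stood far apart from those of the untreated library. They held higher levels of wound keratins, of many alarmins and stefins and of small proline-rich proteins than cells without imiquimod, and lower levels of 9 of 12 measured genes of the basal layer and its adhesion. Of 10618 genes measured, 854 (8.04%) were higher and 2015 (19.0%) lower, with a median log2 ratio over all genes of -0.22, and the counts of list members given below are to be read against such shares. With TMM scaling the median moved up by 0.18 and the split became 1163 higher and 1541 lower, and with DESeq2 size factors it moved up by 0.23 and the split became 1242 and 1429. In 107 cells of each library matched on UMIs, 553 genes were higher and 770 lower. Krt6b had 1378 CPM in labelled-null imiquimod cells and 0 UMIs in labelled-null untreated cells, at least 3104-fold higher against 3 counts over the untreated group. Sprr2d, the defensin gene Defb3 and Sprr2h also had 0 UMIs untreated and were at least 599, 469 and 369-fold higher by the same bound. BC100530, a gene of the stefin A cluster of cysteine protease inhibitors (chr16:36359382-36367748, minus strand), had 14567 CPM in labelled-null imiquimod cells and 47.5 CPM in labelled-null untreated cells, which was 307-fold (275 to 343) higher. Krt16, S100a8 and Sprr1b complete the highest 8 and are described with their groups. Among the lowest 8, Igfbp3, an insulin-like growth factor binding protein, had 3.16 CPM in labelled-null imiquimod cells and 130.2 CPM in labelled-null untreated cells, which was 41.2-fold (23.96 to 77.7) lower. Alox12e, an epidermal lipoxygenase, had 7.78 CPM in labelled-null imiquimod cells and 117 CPM in labelled-null untreated cells, which was 15.004-fold (10.5 to 22.1) lower. Baiap2l1, which encodes an adaptor of membrane and actin, was 22.2-fold (16.1 to 31.3) lower. It had 9.48, 210, 13.4 and 15.4 CPM in labelled-null imiquimod, labelled-null untreated, control imiquimod and control untreated suprabasal cells. Basal keratinocytes held 10.4, 206, 14.5 and 16.3 CPM and fibroblasts 0.153, 8.93, 0.486 and 0.331 CPM in that order. The labelled-null untreated library thus stood apart in each of these classes. Meg3 was 45.7-fold (20.9 to 125) and Igfbp5 22.98-fold (14.2 to 39.7) lower, both in cells whose fibroblast markers were also lower. The part of the fibroblast RNA in them was not tested. Lyz2, a lysozyme of myeloid cells, was 87.6-fold (29.8 to 427) lower, but 239 of its 432 UMIs in labelled-null untreated cells came from 1 cell.

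In control skin, suprabasal cells of the imiquimod library differed from the untreated ones by higher levels of interferon-stimulated genes, a defensin and a few chemokines and envelope genes. Of 10302 genes measured, 508 (4.93%) were higher and 448 (4.35%) lower, with a median log2 ratio of -0.13. With TMM scaling the median moved up by 0.13 and the split became 613 higher and 324 lower, and with DESeq2 size factors 615 and 322. Ifi27l2a, an interferon-induced gene (chr12:103442167-103443680, minus strand), had 1161 CPM in control imiquimod cells and 5.58 CPM in control untreated cells, which was 208-fold (136 to 336) higher. Defb6, a beta-defensin (chr8:19225478-19228209, plus strand), had 2587 CPM in control imiquimod cells and 89.6 CPM in control untreated cells, which was 28.9-fold (25.9 to 32.3) higher. The acute-phase gene Saa3 and the chemokine Ccl20, with 54.6 and 54.2 CPM in control imiquimod cells, had 0 UMIs in control untreated cells and were at least 68.4 and 67.999-fold higher. Fibroblasts held 1646 CPM of Saa3 in control imiquimod and 11.1 CPM in control untreated skin, and the part of their RNA in it was not tested. Oasl2, S100a8, Sprr2d and BC100530 complete the highest 8. The lowest 8 held the matrix genes Col1a1 at 156 against 1291 CPM, Col3a1 at 122 against 736 CPM and Sparc at 279 against 1319 CPM in control imiquimod against control untreated cells, with Igfbp5 and Meg3. The summed fibroblast markers given above differed between these cells in the same direction, and their part in these ratios was not tested. Acta1 and Acta2 were also among the lowest 8, with 210 of 234 and 239 of 260 control untreated UMIs in 1 cell each, and Acta2 turned to higher without that cell. Gm10320 was 6.08-fold (4.78 to 7.81) lower, and had a similar ratio in basal keratinocytes.

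Without imiquimod, fewer genes were called between suprabasal cells of the labelled-null and control libraries than in the other 3 comparisons. Of 10565 genes measured, 241 (2.28%) were higher and 105 (0.994%) lower in labelled-null untreated cells, with a median log2 ratio of -0.04. None of the measured members of spinous differentiation (14), the granular layer (11), desmosomes (9), barrier lipid synthesis (18), interferon-stimulated genes (12), basement membrane adhesion (13) or cholesterol synthesis (14) was called. Chemokines and cytokines had 4 of 12 measured members higher and 0 lower, alarmins and antimicrobial proteins 3 of 9 measured members higher and 1 lower, and proteases and inhibitors 3 of 17 measured members higher and 1 lower. Growth factor and wound edge genes had 2 of 9 measured members higher and 1 lower, and regulators of differentiation 2 of 33 measured members higher and 0 lower. Of the IL-1 family (9 measured), Nrf2 targets (10) and hypoxia and glycolysis (17), 1 member each was higher. The higher alarmins were S100a8, S100a9 and Saa3, and 246 of 250 S100a8 and 216 of 222 S100a9 UMIs of labelled-null untreated cells were in 1 cell each. Baiap2l1 had 210.2 CPM in labelled-null untreated cells and 15.4 CPM in control untreated cells, which was 13.6-fold (10.5 to 18.04) higher, and in basal keratinocytes it was 12.6-fold higher. Rps26-ps1, Tmem181a, AY036118, Gm10269 and Gm10076 were 2.43 to 4.70-fold higher, with basal ratios of 2.40 to 4.65, so these genes differed by library in both layers. In fibroblasts they were also higher, with 340, 39.8, 65.9, 46.8 and 656 CPM in labelled-null untreated skin. Control untreated fibroblasts held 68.3, 15.6, 12.1, 15.7 and 253 CPM. The difference between these libraries was thus not confined to keratinocytes. Fabp4, a fatty acid binding protein of adipocytes, was 19.95-fold (11.99 to 35.9) higher with 352 of its 538 UMIs in 1 cell. Lower in labelled-null untreated cells were Hebp2 (42.9 against 126 CPM), Npc1, the lysosomal cholesterol transporter (26.3 against 71.005 CPM), Agpat4, an acyltransferase of phospholipid synthesis (69.4 against 139.6 CPM), 1600014C10Rik (73.5 against 156 CPM) and Gm10320 (24.7 against 90.2 CPM). Acta1, Tpm2 and Acta2 were lower with 1 control untreated cell for each gene that held 210 of 234, 146 of 218 and 239 of 260 of their UMIs. Haemoglobin genes summed to 1275 CPM in labelled-null untreated cells and 74.5 CPM in control untreated cells, with 3248 of 3465 labelled-null untreated UMIs of Hba-a1 in 1 cell. With the cells marked by the doublet caller left out, which were 14 control untreated suprabasal cells and 0 labelled-null untreated ones, 454 genes were higher.

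Under imiquimod, suprabasal cells of the labelled-null library held more of the activation keratins and of many alarmins and proteases than those of the control library, and less of most genes of the basal layer list. Of 10206 genes measured, 713 (6.99%) were higher and 1275 (12.5%) lower, with a median log2 ratio of -0.08. It shares its libraries with the comparisons above, so its ratios are not independent of theirs, and whether imiquimod acted differently in labelled-null and control skin was not tested. Serpinb3a, a protease inhibitor, had 198 CPM in labelled-null imiquimod cells and 1.74 CPM in control imiquimod cells, which was 114-fold (61.5 to 238) higher. Gm5416 had 111 CPM in labelled-null imiquimod cells and 0.523 CPM in control imiquimod cells, which was 213-fold (72.4 to 1036) higher. Gjb2, the gap junction protein connexin 26, had 189 CPM in labelled-null imiquimod cells and 1.92 CPM in control imiquimod cells, which was 98.7-fold (54.9 to 199) higher. Among the lowest 8 was Txnip, an inhibitor of thioredoxin and of glucose uptake, with 21.4 CPM in labelled-null imiquimod cells and 385 CPM in control imiquimod cells, which was 17.98-fold (14.5 to 22.5) lower. Serpina3j was 46.6-fold (21.2 to 128) lower, Cyp2f2, a cytochrome P450, 11.97-fold (8.17 to 18.2) lower and Igfbp3 20.97-fold (12.1 to 39.8) lower. Cyp2f2 had 6.81 CPM with imiquimod and 23.1 CPM untreated in the labelled-null libraries. In control cells, Cyp2f2 had 81.5 CPM with imiquimod and 18.9 CPM untreated. Fibroblasts held 230.5, 438, 1739 and 582 CPM of it in the same order of libraries, and the part of their RNA in it was not tested. Pyy, which encodes peptide YY, was 39.6-fold (22.99 to 74.7) lower with 156 of its 717 control imiquimod UMIs in 1 cell.

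**Figure D3:**
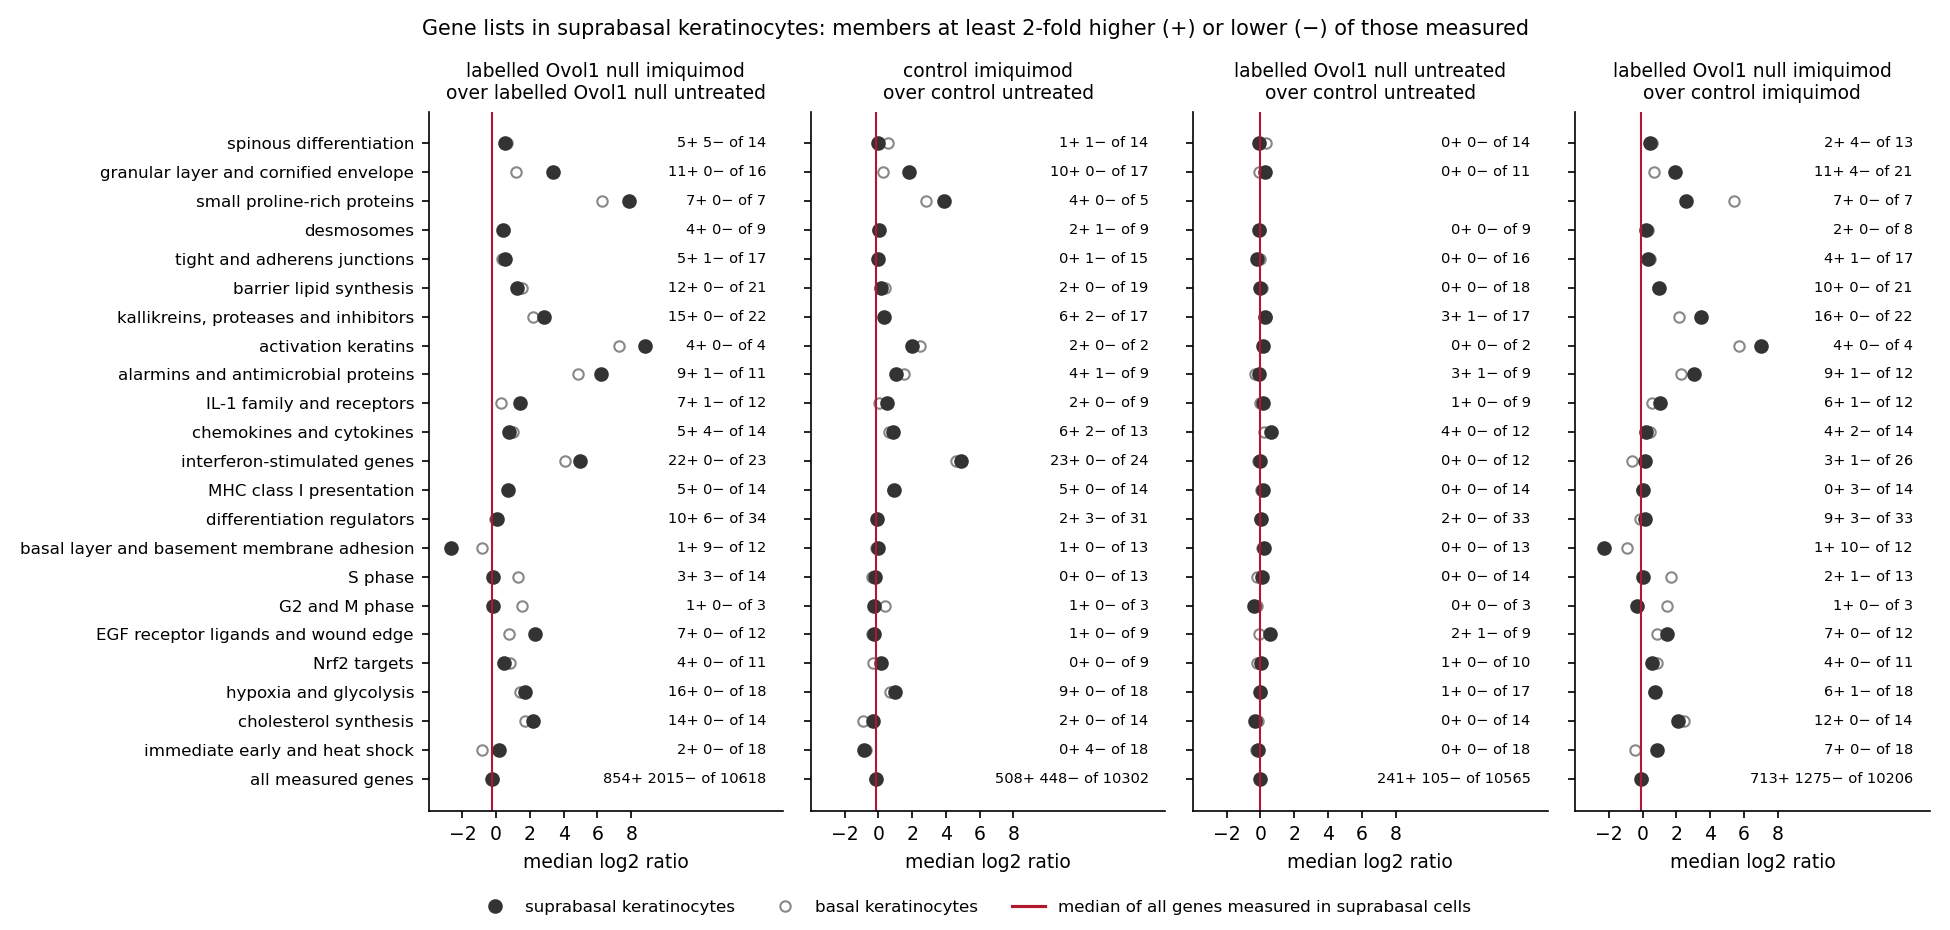
Median log2 ratio of each of 22 gene lists in the 4 comparisons, in suprabasal keratinocytes (filled points) and basal keratinocytes (open points), with the median of all measured genes as a red line. Numbers give the members at least 2-fold higher (+) and lower (−) among those measured in suprabasal cells. Activation keratins reach 8.84 in labelled-null imiquimod over labelled-null untreated cells, and no list has more than 4 members called in labelled-null untreated over control untreated cells.

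Spinous genes did not move as 1 group. They had 5 of 14 measured members higher and 5 lower in labelled-null imiquimod over labelled-null untreated cells (median log2 0.52), 1 of 14 measured members higher and 1 lower in control imiquimod over control untreated cells and 2 of 13 measured members higher and 4 lower in labelled-null imiquimod over control imiquimod cells. Fabp5 had 7809 CPM with imiquimod and 584 CPM untreated in the labelled-null libraries. In control cells, Fabp5 had 1100.0 CPM with imiquimod and 505 CPM untreated. The level was 13.4-fold (12.9 to 13.8) higher with imiquimod in the labelled-null pair and 2.18-fold (2.07 to 2.30) higher in the control pair. Dmkn, the secreted protein dermokine, had 6056 CPM in labelled-null imiquimod cells, 2683 CPM in labelled-null untreated cells, 2606 CPM in control imiquimod cells and 3075 CPM in control untreated cells. Lypd3, a GPI-anchored protein of suprabasal cells, had 963 CPM with imiquimod and 379 CPM untreated in the labelled-null libraries. In control cells, Lypd3 had 549 CPM with imiquimod and 351 CPM untreated. These were higher in the library in which Krt77 and Mt4 were lower. Krt2, the keratin of late spinous cells, was scarce, with 0.729 CPM (labelled-null imiquimod), 8.58 CPM (labelled-null untreated), 2.27 CPM (control imiquimod) and 12.2 CPM (control untreated). Skint5 and Skint6, of a family known from the selection of epidermal T cells in mice, were 2.84-fold (2.03 to 4.06) and 4.41-fold (2.60 to 7.98) lower in the labelled-null pair.

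Every called gene of the granular layer and cornified envelope was higher with imiquimod in the labelled-null and control pairs, though 4 of the control calls rested on 1 cell each. They had 11 of 16 measured members higher and 0 lower in the labelled-null pair (median log2 3.35 against -0.22 for all genes) and 10 of 17 measured members higher and 0 lower in the control pair (median 1.81 against -0.13), while in labelled-null untreated over control untreated cells none of 11 was called. In labelled-null imiquimod over control imiquimod cells the list had 11 of 21 measured members higher and 4 lower. Tgm3, a transglutaminase that cross-links envelope proteins, had 73.2 CPM with imiquimod and 2.81 CPM untreated in the labelled-null libraries. In control cells, Tgm3 had 10.99 CPM with imiquimod and 1.60 CPM untreated. Cnfn, which encodes cornifelin, had 184 CPM in labelled-null imiquimod cells, 4.14 CPM in labelled-null untreated cells, 16.6 CPM in control imiquimod cells and 2.93 CPM in control untreated cells. Asprv1, a protease that processes profilaggrin, had 156 CPM with imiquimod and 13.6 CPM untreated in the labelled-null libraries. In control cells, Asprv1 had 36.8 CPM with imiquimod and 10.4 CPM untreated. All 3 were highest in labelled-null imiquimod cells, next in control imiquimod cells and low in both untreated libraries, though 95 of 643 Asprv1 and 100 of 757 Cnfn UMIs of the first came from 1 cell each. Casp14, a caspase of terminal differentiation, had 181 CPM in labelled-null imiquimod cells, 29.1 CPM in labelled-null untreated cells, 48.3 CPM in control imiquimod cells and 24.998 CPM in control untreated cells. It was 6.22-fold (5.31 to 7.32) higher in the labelled-null pair and 1.93-fold, short of the 2-fold line, in the control pair. Loricrin (Lor) and filaggrin (Flg), the main proteins of granular cells, were low in all 4 libraries, Lor with 9.24 CPM (labelled-null imiquimod), 9.17 CPM (labelled-null untreated), 16.9 CPM (control imiquimod) and 17.3 CPM (control untreated), and Flg with 40, 1, 1 and 0 UMIs in that order. Flg was read from 1 of its 7 gene IDs, so its counts may miss filaggrin RNA and its level is uncertain. Lor was within 2-fold between all pairs of libraries compared, with 37 of its 97 control imiquimod UMIs in 1 cell. Of the 40 Flg UMIs of the labelled-null imiquimod library, 18 were in 1 cell. The late envelope genes Lce1a1, Lce1b, Lce1l and Lce1m were called higher in control imiquimod cells, but 53 of 56, 33 of 34, 30 of 31 and 44 of 49 of their UMIs there were in 1 cell each.

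Small proline-rich proteins, which are cross-linked into the envelope and are known to be induced in injured skin, were higher with imiquimod in every member called. They had 7 of 7 measured members higher and 0 lower in the labelled-null pair (median log2 7.90, or 5.30 with members at 0 set to their bound) and 4 of 5 measured members higher and 0 lower in the control pair (3.86, or 2.66). Sprr1b, Sprr2d and Sprr2h had 1, 0 and 0 UMIs in labelled-null untreated cells. They were measured in that pair only through the imiquimod library, which fixed their direction. Sprr1b (chr3:92436809-92438789, minus strand) had 487 CPM with imiquimod and 0.148 CPM untreated in the labelled-null libraries. In control cells, Sprr1b had 13.4 CPM with imiquimod, with 30 of 77 UMIs in 1 cell, and 0.798 CPM untreated. The labelled-null untreated cells held 1 UMI of it, and the ratio in that pair was 3288-fold (589 to 129941). Sprr2d had 266 CPM in labelled-null imiquimod cells, 0 CPM in labelled-null untreated cells, 73.3 CPM in control imiquimod cells and 0.798 CPM in control untreated cells. The level was 91.8-fold (31.2 to 447) higher in the control pair. Sprr1a had 348 CPM with imiquimod and 17.8 CPM untreated in the labelled-null libraries. In control cells, Sprr1a had 60.4 CPM with imiquimod and 10.9 CPM untreated. Labelled-null imiquimod cells were 36.2-fold (28.8 to 46.1) above control imiquimod cells for Sprr1b, 5.77-fold (5.13 to 6.51) for Sprr1a and 3.63-fold (3.24 to 4.07) for Sprr2d. Reads of the near-identical Sprr2 genes may have been split or dropped by the counting, so the values of single Sprr2 genes are uncertain.

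Some connexins, desmosomal cadherins and the claudin gene Cldn4 were higher with imiquimod in the labelled-null pair, and Cgn was lower. Desmosomes had 4 of 9 measured members higher and 0 lower and tight and adherens junctions 5 of 17 measured members higher and 1 lower in the labelled-null pair, 2 of 9 measured members higher and 1 lower and 0 of 15 measured members higher and 1 lower in the control pair. Gjb2 had 189 CPM with imiquimod and 0.444 CPM untreated in the labelled-null libraries. In control cells, Gjb2 had 1.92 CPM with imiquimod and 0.532 CPM untreated. Gjb6, connexin 30, had 26.0 CPM (labelled-null imiquimod), 0.148 CPM (labelled-null untreated), 0.872 CPM (control imiquimod) and 0.798 CPM (control untreated). Gja1, connexin 43, had 277 CPM in labelled-null imiquimod cells, 58.7 CPM in labelled-null untreated cells, 54.1 CPM in control imiquimod cells and 84.6 CPM in control untreated cells. The level was 4.72-fold (4.21 to 5.30) higher in the labelled-null pair. Cldn4, a tight junction claudin, had 82.7 CPM with imiquimod and 9.17 CPM untreated in the labelled-null libraries. In control cells, Cldn4 had 18.1 CPM with imiquimod and 12.2 CPM untreated. For these 4 genes the labelled-null imiquimod library was highest and the other 3 libraries were far below it. Dsc1, a desmosomal cadherin of upper layers, had 32.8 CPM (labelled-null imiquimod), 2.81 CPM (labelled-null untreated), 6.98 CPM (control imiquimod) and 1.86 CPM (control untreated), and was higher with imiquimod in both pairs. Jup, or plakoglobin, was within 2-fold in every comparison, with 707 CPM in labelled-null imiquimod cells, 538 CPM in labelled-null untreated cells, 645 CPM in control imiquimod cells and 624 CPM in control untreated cells.

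More enzymes of barrier lipid synthesis were called higher with imiquimod in labelled-null than in control cells, a difference that was not tested. They had 12 of 21 measured members higher and 0 lower in the labelled-null pair (median log2 1.24), 2 of 19 measured members higher and 0 lower in the control pair (0.13) and 10 of 21 measured members higher and 0 lower in labelled-null imiquimod over control imiquimod cells (0.94). Degs1, which makes ceramides from dihydroceramides, had 394 CPM with imiquimod and 96.9 CPM untreated in the labelled-null libraries. In control cells, Degs1 had 190.3 CPM with imiquimod and 88.6 CPM untreated. It was 4.06-fold (3.71 to 4.45) and 2.15-fold (1.90 to 2.44) higher with imiquimod in the labelled-null and control pairs. Elovl4, which makes very long fatty acids, had 355 CPM in labelled-null imiquimod cells, 119.7 CPM in labelled-null untreated cells, 188 CPM in control imiquimod cells and 156 CPM in control untreated cells. Alox12b, the lipoxygenase that starts the oxidation of barrier ceramides, had 21.9 CPM (labelled-null imiquimod), 0.592 CPM (labelled-null untreated), 1.40 CPM (control imiquimod) and 0 CPM (control untreated). Labelled-null imiquimod cells held the highest level of each of these 3 genes. Acer1, an alkaline ceramidase of epidermis, was level across the libraries, with 187 CPM with imiquimod and 177 CPM untreated in the labelled-null libraries. In control cells, Acer1 had 187 CPM with imiquimod and 172 CPM untreated.

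Many proteases and their inhibitors were higher in labelled-null imiquimod than in control imiquimod cells. They had 15 of 22 measured members higher and 0 lower in the labelled-null pair (median log2 2.85), 6 of 17 measured members higher and 2 lower in the control pair (0.35), 3 of 17 measured members higher and 1 lower in labelled-null untreated over control untreated and 16 of 22 measured members higher and 0 lower in labelled-null imiquimod over control imiquimod cells (3.45). Stfa3, a stefin, had 4157 CPM with imiquimod and 55.5 CPM untreated in the labelled-null libraries. In control cells, Stfa3 had 91.8 CPM with imiquimod and 21.01 CPM untreated. BC100530 had 14567 CPM in labelled-null imiquimod cells, 47.5 CPM in labelled-null untreated cells, 410.4 CPM in control imiquimod cells and 13.03 CPM in control untreated cells. Basal keratinocytes of the labelled-null imiquimod library held 10791 CPM of it. Csta1, another cystatin A gene, had 325 CPM with imiquimod and 5.18 CPM untreated in the labelled-null libraries. In control cells, Csta1 had 12.9 CPM with imiquimod and 4.52 CPM untreated. All 3 were higher with imiquimod in both pairs and highest in the labelled-null imiquimod library, and reads of the near-identical stefin genes may be split among them. Klk8, a kallikrein of the desquamation cascade, had 259.9 CPM in labelled-null imiquimod cells, 23.8 CPM in labelled-null untreated cells, 21.1 CPM in control imiquimod cells and 19.9 CPM in control untreated cells. It was within 2-fold between the control libraries. Cstb, cystatin B, had 1787 CPM with imiquimod and 423 CPM untreated in the labelled-null libraries. In control cells, Cstb had 617 CPM with imiquimod and 333 CPM untreated. Cst6, cystatin M/E, was carried by single cells: 1 cell held 3142 of 5735 UMIs in the labelled-null imiquimod library, and 1 cell 1320 of 4707 in the control imiquimod library.

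The activation keratins, known from wounds and psoriasis, separated the labelled-null imiquimod library from all others. They had 4 of 4 measured members higher and 0 lower in the labelled-null pair (median log2 8.84), 2 of 2 measured members higher and 0 lower in the control pair (1.97) and 4 of 4 measured members higher and 0 lower in labelled-null imiquimod over control imiquimod cells (7.01). Krt6a and Krt6b had 13 and 0 UMIs in labelled-null untreated and 18 and 1 in control imiquimod cells. Against these they were measured only through the labelled-null imiquimod library, which fixed their direction. In basal keratinocytes of the labelled-null pair 4 of 4 were higher too (median 7.26), beside 1060 higher and 1974 lower of all 12095 genes measured there. Basal keratinocytes of the labelled-null imiquimod library held 1411, 537, 1295 and 2251 CPM of Krt6a, Krt6b, Krt16 and Krt17. Its keratinocytes with 5 or more Krt79 UMIs per 10000 held 1303.5, 204, 1592 and 10285 CPM. High levels of these genes were thus not particular to suprabasal cells. Krt16 (chr11:100246091-100248902, minus strand) had 3565 CPM with imiquimod and 7.55 CPM untreated in the labelled-null libraries. In control cells, Krt16 had 59.8 CPM with imiquimod and 10.6 CPM untreated. The level was 472-fold (359 to 635) higher with imiquimod in the labelled-null pair and 5.62-fold (4.05 to 8.01) higher in the control pair. Krt6a (chr15:101689910-101694307, minus strand) had 902 CPM (labelled-null imiquimod), 1.92 CPM (labelled-null untreated), 3.14 CPM (control imiquimod) and 0.266 CPM (control untreated). Its neighbour Krt6b (chr15:101676023-101680287, minus strand) had 1378 CPM in the first of these libraries, 1 UMI in control imiquimod cells and 0 UMIs in both untreated libraries. Krt17 (chr11:100256217-100261029, minus strand) had 1783 CPM in labelled-null imiquimod cells, 149.9 CPM in labelled-null untreated cells, 242 CPM in control imiquimod cells and 87.0 CPM in control untreated cells. Krt6a and Krt6b are near-identical and lie side by side, and Krt16 and Krt17 are close relatives and neighbours, so the split of reads between the members of each pair is uncertain. With each cell thinned to 2000 UMIs, Krt6b was seen in 36.6% (30.4 to 43.2) of 232 labelled-null imiquimod cells and in 0 of 906 labelled-null untreated, 0 of 689 control imiquimod and 0 of 526 control untreated cells, which allows shares of up to 0.331%, 0.435% and 0.570%. Krt16 was seen in 65.9% (59.5 to 72.0), 0.442% (0.120 to 1.13), 4.50% (3.08 to 6.33) and 1.52% (0.659 to 2.97) of thinned cells in that order of libraries, beside 5.23%, 0.157%, 0.999% and 0.0294% of fibroblasts. Krt16 is also a gene of the outer root sheath of hair follicles. Of its UMIs, 31 of 51 labelled-null untreated, 90 of 343 control imiquimod and 21 of 40 control untreated ones came from 1 cell each.

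The genes were seen together in single cells. Of 232 thinned labelled-null imiquimod cells, 58 had a UMI of all 5 of Krt6a, Krt6b, Krt16, S100a8 and S100a9, 47 of 4, 43 of 3, 43 of 2, 26 of 1 and 15 of none. Among 906 labelled-null untreated cells 898 had none and 1 had 2, among 689 control imiquimod cells 609 had none, 14 had 2 and 1 had 3, and among 526 control untreated cells 519 had none and 7 had 1. Without thinning the counts with all 5 genes were 106 of 232 labelled-null imiquimod cells and 0 of the cells of each other library. Cells of the labelled-null imiquimod library differed widely among themselves: 1.11 and 24.5 Krt6a UMIs, 0.596 and 35.5 Krt6b UMIs, 12.1 and 88.8 Krt16 UMIs and 75.6 and 325 S100a8 UMIs per 10000 were the median and the upper decile of its suprabasal cells. Thinned fibroblasts of that library showed Krt6b in 1.56% and S100a8 in 26.2% of cells.

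**Figure D4:**
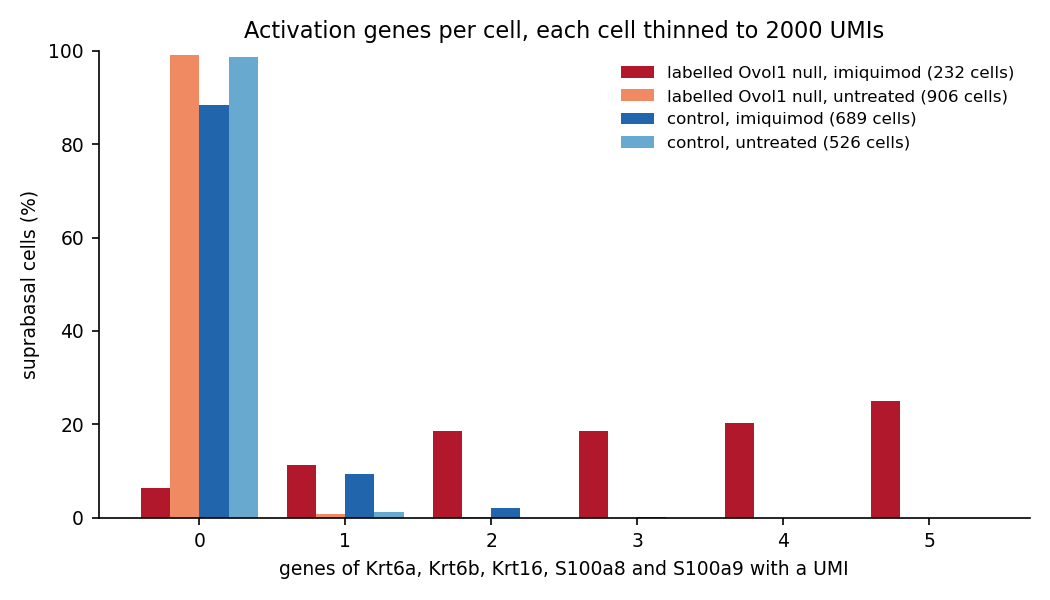
Share of suprabasal cells (percent) by how many of Krt6a, Krt6b, Krt16, S100a8 and S100a9 had a UMI, with each cell thinned to 2000 UMIs, in the 4 libraries. In the labelled-null imiquimod library 58 of 232 cells had all 5 genes, while 519 of 526 control untreated cells had none.

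Alarmins and antimicrobial proteins were high in labelled-null imiquimod cells, and in part in control imiquimod cells. They had 9 of 11 measured members higher and 1 lower in the labelled-null pair (median log2 6.23, or 5.70 at the bound), 4 of 9 measured members higher and 1 lower in the control pair (1.03) and 9 of 12 measured members higher and 1 lower in labelled-null imiquimod over control imiquimod cells (3.01). S100a8 and S100a9 encode the 2 subunits of calprotectin, an alarmin, and lie close together on chromosome 3 (chr3:90668978-90670035, plus strand, and chr3:90692632-90695721, minus strand). S100a8 had 14030.0 CPM with imiquimod and 37.0 CPM untreated in the labelled-null libraries. In control cells, S100a8 had 63.3 CPM with imiquimod and 0.532 CPM untreated. S100a9 had 7027 CPM in labelled-null imiquimod cells, 32.8 CPM in labelled-null untreated cells, 46.6 CPM in control imiquimod cells and 0.266 CPM in control untreated cells. Basal keratinocytes of the labelled-null imiquimod library held 9774 CPM of S100a8. Its keratinocytes with 5 or more Krt79 UMIs per 10000 held 11215.5 CPM. High S100a8 levels were thus not particular to suprabasal cells. In labelled-null untreated cells 246 of 250 S100a8 and 216 of 222 S100a9 UMIs were in 1 cell each. In control imiquimod cells 73 of 363 S100a8 and 50 of 267 S100a9 UMIs were in 1 cell each. Thinned cells with an S100a8 UMI were 85.8% (80.6 to 90.002), 0.331% (0.0683 to 0.965), 4.35% (2.96 to 6.16) and 0.190% (0.00481 to 1.05) in the order labelled-null imiquimod, labelled-null untreated, control imiquimod and control untreated, beside 26.2%, 0.105%, 0.856% and 0.0882% of fibroblasts. S100a8 was thus seen in most labelled-null imiquimod cells and in few cells of the other libraries. S100a8 and S100a9 are also the main transcripts of neutrophils: the 8 neutrophil markers summed to 21115, 90.8, 136 and 5.32 CPM in that order, and the defining marker Ly6g was at 0 in all 4 libraries. Of the other markers, Cxcr2 had 8.27, 0.444, 0.872 and 0.266 CPM and Il1b 48.1, 11.7, 24.8 and 3.99 CPM in that order. Retnlg had 0.243, 8.14, 0 and 0 CPM, Csf3r 0.243, 0, 0 and 0 CPM and Mmp9 0.729, 0.740, 0.349 and 0.266 CPM. The part of neutrophil RNA in S100a8 and S100a9 was not tested. Defb6 had 4033 CPM with imiquimod and 111 CPM untreated in the labelled-null libraries. In control cells, Defb6 had 2587 CPM with imiquimod and 89.6 CPM untreated. It was within 2-fold between the 2 imiquimod libraries. Keratinocytes with 5 or more Krt79 UMIs per 10000 held more Defb6 than suprabasal cells in each library. Their levels were 14659.5, 9527, 20380 and 10820 CPM in labelled-null imiquimod, labelled-null untreated, control imiquimod and control untreated skin. Thinned cells with a Defb6 UMI were 89.2% (84.5 to 92.9), 16.1% (13.8 to 18.7), 77.5% (74.2 to 80.6) and 7.60% (5.49 to 10.2) in the same order, and fibroblasts 10.3%, 10.5%, 31.1% and 3.56%. Defb3 (chr8:19293360-19295291, plus strand), further along the same chromosome, had 208 CPM in labelled-null imiquimod cells, 2 UMIs in control imiquimod cells and 0 UMIs in both untreated libraries. Saa3 had 249.7 CPM (labelled-null imiquimod), 3.26 CPM (labelled-null untreated), 54.6 CPM (control imiquimod) and 0 CPM (control untreated). Fibroblasts of these libraries held 18096, 83.8, 1646 and 11.1 CPM of Saa3 in that order, and the part of their RNA in it was not tested. Lcn2, lipocalin 2, had 84.9 CPM (labelled-null imiquimod), 1.92 CPM (labelled-null untreated), 6.11 CPM (control imiquimod) and 3.72 CPM (control untreated). Defb1 was the 1 lower member, with 11.4 CPM with imiquimod and 33.3 CPM untreated in the labelled-null libraries. In control cells, Defb1 had 45.7 CPM with imiquimod and 44.1 CPM untreated. Defb6, Krt17, Cst6 and Klk10 are also on the list of upper hair follicle markers, which summed to 7355, 764, 3799 and 575 CPM in the order above, and the part of follicle cells was not tested.

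Ligands of the IL-1 family and their receptors, which start and damp epidermal inflammation, were low in number of UMIs. They had 7 of 12 measured members higher and 1 lower in the labelled-null pair, 2 of 9 measured members higher and 0 lower in the control pair and 6 of 12 measured members higher and 1 lower in labelled-null imiquimod over control imiquimod cells. Il1f9, the agonist IL-36 gamma, had 73.9 CPM in labelled-null imiquimod cells, 7.40 CPM in labelled-null untreated cells, 8.55 CPM in control imiquimod cells and 5.32 CPM in control untreated cells. Il1rn, the IL-1 receptor antagonist, had 159 CPM with imiquimod and 59.2 CPM untreated in the labelled-null libraries. In control cells, Il1rn had 60.01 CPM with imiquimod and 60.1 CPM untreated. Il1f5, the IL-36 receptor antagonist, had 84.6 CPM (labelled-null imiquimod), 13.2 CPM (labelled-null untreated), 18.8 CPM (control imiquimod) and 10.9 CPM (control untreated). Agonists and antagonists were thus highest in the same library. Il1r2, a decoy receptor for IL-1, had 26.0 CPM in labelled-null imiquimod cells, 39.8 CPM in labelled-null untreated cells, 87.2 CPM in control imiquimod cells and 26.9 CPM in control untreated cells: it was 3.25-fold (2.62 to 4.06) higher with imiquimod in the control pair and 3.35-fold (2.72 to 4.17) lower in labelled-null imiquimod than control imiquimod cells. Fibroblasts held 707, 508, 1924 and 669 CPM of Il1r2 in the same order of libraries, and the part of their RNA in it was not tested.

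Chemokines and cytokines included genes that went in opposite directions. They had 5 of 14 measured members higher and 4 lower in the labelled-null pair, 6 of 13 measured members higher and 2 lower in the control pair, 4 of 12 measured members higher and 0 lower in labelled-null untreated over control untreated and 4 of 14 measured members higher and 2 lower in labelled-null imiquimod over control imiquimod cells. Ccl20, which attracts CCR6-bearing cells, had 423 CPM with imiquimod and 2.07 CPM untreated in the labelled-null libraries. In control cells, Ccl20 had 54.2 CPM with imiquimod and 0 CPM untreated. Cxcl16, a membrane-bound chemokine, had 200.3 CPM in labelled-null imiquimod cells, 17.5 CPM in labelled-null untreated cells, 65.4 CPM in control imiquimod cells and 15.2 CPM in control untreated cells. Ccl27a, the skin chemokine for CCR10-bearing T cells (chr4:41769467-41774247, minus strand), had 133 CPM with imiquimod and 1936 CPM untreated in the labelled-null libraries. In control cells, Ccl27a had 2909 CPM with imiquimod and 1134 CPM untreated. It was 14.5-fold (13.3 to 15.9) lower with imiquimod in the labelled-null pair and 2.56-fold (2.48 to 2.65) higher in the control pair, but Ccl27a has near-identical copies in the mouse genome, so its counts are uncertain. Tslp, a cytokine of epidermal origin, was lower with imiquimod in both pairs, with 4.38 CPM in labelled-null imiquimod cells, 23.8 CPM in labelled-null untreated cells, 5.58 CPM in control imiquimod cells and 20.2 CPM in control untreated cells. Cxcl1 was called higher in the control pair with 56 of its 69 control imiquimod UMIs in 1 cell.

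Interferon-stimulated genes were higher with imiquimod in both pairs. They had 22 of 23 measured members higher and 0 lower in the labelled-null pair (median log2 4.99, or 4.42 at the bound), 23 of 24 measured members higher and 0 lower in the control pair (4.90, or 3.58) and 0 of 12 measured members higher and 0 lower in labelled-null untreated over control untreated cells. Members not measured between the untreated libraries entered the first counts through the imiquimod libraries, which fixed their direction. Many such genes are known to be switched on through an interferon response element near their start, a repeat of GAAA. The motif GAAA, any 2 bases, GAAA was searched on both strands in the 300 bases from 250 before to 50 after the gene start (RefSeq, GRCm38.p6). It was present in 14 of 25 promoters of this list (56.0%), against 3.44% of 32851 promoters of all genes. Counted by gene, it was present in 12 of the 21 listed genes found in that table (57.1%), against 3.99% of 27025 genes. Of 4 genes that were higher with imiquimod in both pairs and hold the motif, the promoters are shown 5′ to 3′ on the strand of the gene, with matches on either strand in capitals; overlapping matches run together. Isg15 is chr4:156200769-156201068 (minus strand). Ifit1 is chr19:34640639-34640938 (plus strand). Oas1a is chr5:120907476-120907775 (minus strand). Bst2 is chr8:71537423-71537722 (minus strand).
Isg15: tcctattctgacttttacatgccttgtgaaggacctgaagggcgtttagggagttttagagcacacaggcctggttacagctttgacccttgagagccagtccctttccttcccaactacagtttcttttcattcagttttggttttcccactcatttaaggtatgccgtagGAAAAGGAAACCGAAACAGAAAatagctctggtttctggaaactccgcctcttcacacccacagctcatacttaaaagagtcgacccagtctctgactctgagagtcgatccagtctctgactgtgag
Ifit1: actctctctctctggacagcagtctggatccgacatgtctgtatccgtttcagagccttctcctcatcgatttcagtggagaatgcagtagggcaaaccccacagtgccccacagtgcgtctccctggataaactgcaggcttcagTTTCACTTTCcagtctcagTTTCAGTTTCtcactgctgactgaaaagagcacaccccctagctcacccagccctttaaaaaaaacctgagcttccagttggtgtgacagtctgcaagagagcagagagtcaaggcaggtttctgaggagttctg
Oas1a: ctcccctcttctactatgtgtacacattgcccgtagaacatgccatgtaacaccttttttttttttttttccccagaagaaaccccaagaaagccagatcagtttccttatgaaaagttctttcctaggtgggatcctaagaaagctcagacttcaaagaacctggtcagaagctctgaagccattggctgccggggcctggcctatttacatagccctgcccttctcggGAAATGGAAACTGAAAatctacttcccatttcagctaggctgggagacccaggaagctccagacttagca
Bst2: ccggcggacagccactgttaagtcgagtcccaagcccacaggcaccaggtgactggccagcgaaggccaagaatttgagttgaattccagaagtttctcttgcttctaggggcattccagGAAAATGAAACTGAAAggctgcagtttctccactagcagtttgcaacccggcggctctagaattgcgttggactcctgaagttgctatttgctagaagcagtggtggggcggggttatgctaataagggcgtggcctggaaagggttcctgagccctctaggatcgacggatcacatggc

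A match of these letters is a description and not a shown binding site. Isg15 holds 3 overlapping matches that begin 78, 72 and 66 bases before its start, Ifit1 2 separate ones at 104 and 85, Oas1a 2 overlapping ones at 20 and 14 and Bst2 2 overlapping ones at 130 and 124 bases before. Isg15, a ubiquitin-like modifier (chr4:156199424-156200818, minus strand), had 214 CPM with imiquimod and 2.52 CPM untreated in the labelled-null libraries. In control cells, Isg15 had 70.8 CPM with imiquimod and 1.86 CPM untreated. Bst2, the antiviral tetherin, had 375 CPM in labelled-null imiquimod cells, 14.2 CPM in labelled-null untreated cells, 196 CPM in control imiquimod cells and 14.6 CPM in control untreated cells. Oas1a, an oligoadenylate synthetase, had 45.0 CPM with imiquimod and 0.296 CPM untreated in the labelled-null libraries. In control cells, Oas1a had 28.4 CPM with imiquimod and 0.532 CPM untreated. Ifit1, an RNA-binding antiviral protein, had 24.1 CPM (labelled-null imiquimod), 0.296 CPM (labelled-null untreated), 27.2 CPM (control imiquimod) and 0 CPM (control untreated). All 4 genes were near 0 or low in both untreated libraries. Of the listed genes without a match, Irf7, the factor that amplifies interferon production, had 64.2 CPM in labelled-null imiquimod cells, 1.18 CPM in labelled-null untreated cells, 49.9 CPM in control imiquimod cells and 1.60 CPM in control untreated cells. Oasl2 had 47.2 CPM (labelled-null imiquimod), 0.888 CPM (labelled-null untreated), 62.3 CPM (control imiquimod) and 0.532 CPM (control untreated). Ifi27l2a, whose promoter was not among those searched for the motif, had 1114 CPM with imiquimod and 5.77 CPM untreated in the labelled-null libraries. In control cells, Ifi27l2a had 1161 CPM with imiquimod and 5.58 CPM untreated. It was seen in 70.7% (64.4 to 76.5), 1.10% (0.531 to 2.02), 78.2% (74.96 to 81.3) and 1.52% (0.659 to 2.97) of thinned cells in the order labelled-null imiquimod, labelled-null untreated, control imiquimod and control untreated. In fibroblasts, which also answer interferon, the shares were 29.3%, 1.21%, 43.1% and 2.18%. Between the 2 imiquimod libraries, labelled-null over control, the list had 3 of 26 measured members higher and 1 lower (median log2 0.15). Isg15 was 3.03-fold (2.69 to 3.41), Oas3 2.84-fold (2.002 to 4.09) and Oas2 2.86-fold (1.61 to 5.24) higher, and Ifit3 was 2.22-fold (1.06 to 5.09) lower. In basal keratinocytes of the same libraries 1 of 28 was higher and 9 lower (median -0.65). Of all 12114 genes measured in these basal cells, 1140 were higher and 1391 lower. Whether the 2 layers differ in the list was not tested. MHC class I presentation had 5 of 14 measured members higher and 0 lower in the labelled-null pair and 5 of 14 measured members higher and 0 lower in the control pair. Psmb8, an immunoproteasome subunit, had 321 CPM in labelled-null imiquimod cells, 134 CPM in labelled-null untreated cells, 261 CPM in control imiquimod cells and 118 CPM in control untreated cells. H2-Q4, H2-Q6 and H2-T23, class I genes with near-identical relatives, were 2.11-fold (1.81 to 2.47), 2.62-fold (2.098 to 3.30) and 2.18-fold (1.95 to 2.44) lower in labelled-null imiquimod than control imiquimod cells.

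**Figure D5:**
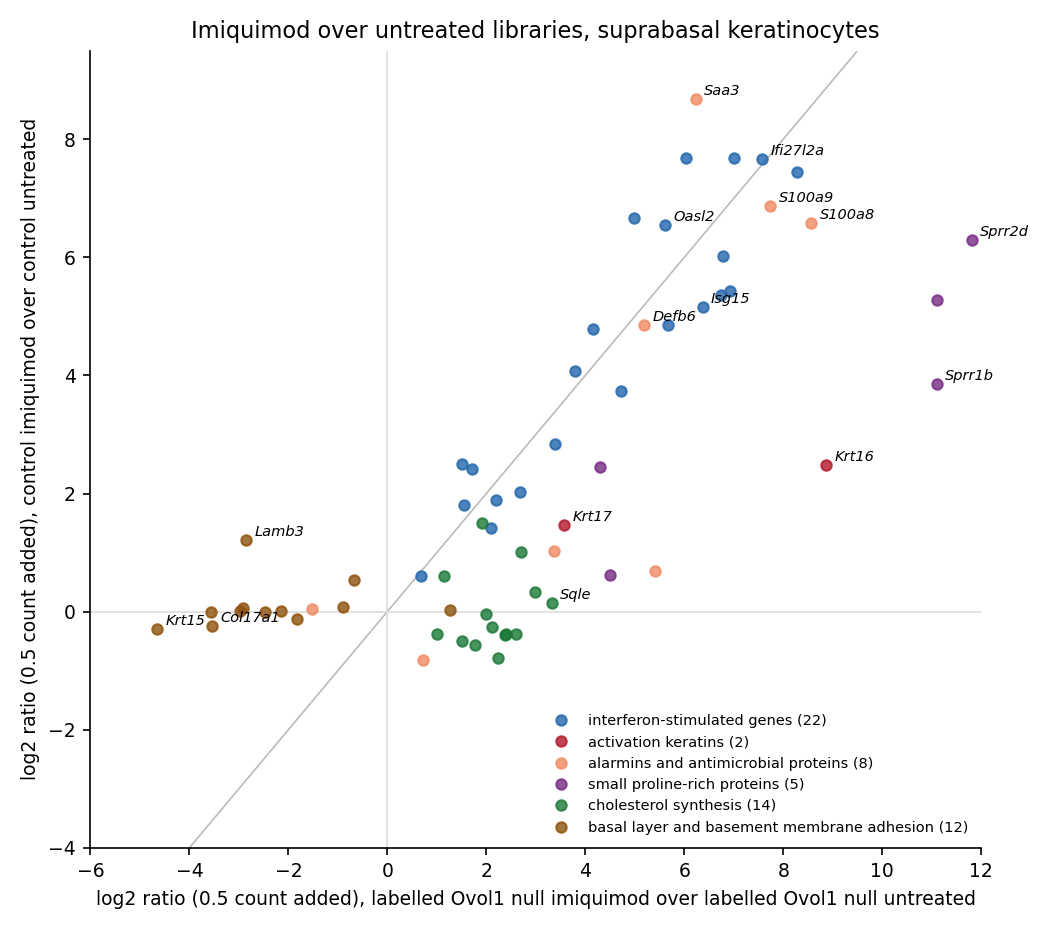
Log2 ratio of imiquimod over untreated suprabasal cells in the labelled-null libraries (x) and the control libraries (y), with 0.5 count added, for members of 6 lists measured in both pairs. Each point is 1 gene, and the grey diagonal marks equal ratios. Interferon-stimulated genes lie near the diagonal (medians 4.99 and 4.90), while cholesterol synthesis genes lie to the right of it (medians 2.17 and -0.32).

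Regulators of differentiation had members in both directions. They had 10 of 34 measured members higher and 6 lower in the labelled-null pair, 2 of 31 measured members higher and 3 lower in the control pair, 2 of 33 measured members higher and 0 lower in labelled-null untreated over control untreated and 9 of 33 measured members higher and 3 lower in labelled-null imiquimod over control imiquimod cells. Of all genes, 8.04% were higher and 19.0% lower in the labelled-null pair and 4.93% and 4.35% in the control pair. Between the untreated libraries these shares were 2.28% and 0.994%, and between the imiquimod libraries 6.99% and 12.5%. In the labelled-null pair and between the imiquimod libraries, lower calls were thus no more frequent among regulators than among all genes. Gata3, a transcription factor of epidermal and hair differentiation, had 111 CPM with imiquimod and 404 CPM untreated in the labelled-null libraries. In control cells, Gata3 had 350.3 CPM with imiquimod and 428 CPM untreated. The level was 3.65-fold (3.30 to 4.04) lower with imiquimod in the labelled-null pair. Trp63, the p63 gene that maintains stratified epithelia and a rule gene, had 132 CPM in labelled-null imiquimod cells, 393 CPM in labelled-null untreated cells, 409 CPM in control imiquimod cells and 443 CPM in control untreated cells. Prdm1, or Blimp1, a factor of terminal differentiation, had 17.5 CPM (labelled-null imiquimod), 0.148 CPM (labelled-null untreated), 1.05 CPM (control imiquimod) and 0.266 CPM (control untreated). Gata3 and Trp63 were lowest and Prdm1 highest in labelled-null imiquimod cells. Ehf, an ETS factor of epithelial differentiation, had 68.1 CPM with imiquimod and 9.32 CPM untreated in the labelled-null libraries. In control cells, Ehf had 20.4 CPM with imiquimod and 3.46 CPM untreated. With Elf3 it was 1 of 2 members called higher in labelled-null untreated over control untreated cells, 2.70-fold (1.47 to 5.34) for Ehf and 10.6-fold (1.68 to 439) for Elf3. Elf3 had 1 UMI in control untreated cells. Cebpb, a C/EBP factor of spinous cells, had 426 CPM in labelled-null imiquimod cells, 165 CPM in labelled-null untreated cells, 237 CPM in control imiquimod cells and 139 CPM in control untreated cells. Klf4, a factor of barrier formation, was within 2-fold in all comparisons, with 319 CPM (labelled-null imiquimod), 305 CPM (labelled-null untreated), 287 CPM (control imiquimod) and 356 CPM (control untreated). Ovol2, the close relative of Ovol1, was lower with imiquimod in both pairs, with 8.75 CPM with imiquimod and 26.3 CPM untreated in the labelled-null libraries. In control cells, Ovol2 had 8.37 CPM with imiquimod and 17.6 CPM untreated. Maf and Notch1 were 3.79-fold (3.13 to 4.61) and 2.91-fold (2.22 to 3.87) lower with imiquimod in the labelled-null pair.

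Genes of the basal layer and its adhesion to the basement membrane, which linger in early suprabasal cells, were mostly lower in labelled-null imiquimod cells, apart from Cd44 and the rule gene Krt14. They had 1 of 12 measured members higher and 9 lower in the labelled-null pair (median log2 -2.66), 1 of 13 measured members higher and 0 lower in the control pair (0.00), 0 of 13 measured members higher and 0 lower in labelled-null untreated over control untreated and 1 of 12 measured members higher and 10 lower in labelled-null imiquimod over control imiquimod cells (-2.28). Krt15 (chr11:100131758-100135928, minus strand) had 160.0 CPM with imiquimod and 4038 CPM untreated in the labelled-null libraries. In control cells, Krt15 had 4019 CPM with imiquimod and 4929 CPM untreated. The level was 25.2-fold (23.4 to 27.3) lower in the labelled-null pair, and 260 of the 658 UMIs in labelled-null imiquimod cells were in 1 cell. Col17a1, a collagen of hemidesmosomes, had 28.9 CPM in labelled-null imiquimod cells, 339.6 CPM in labelled-null untreated cells, 261 CPM in control imiquimod cells and 309 CPM in control untreated cells. Dst, whose epidermal form is the hemidesmosome plakin BPAG1, had 24.3 CPM with imiquimod and 192 CPM untreated in the labelled-null libraries. In control cells, Dst had 227 CPM with imiquimod and 227 CPM untreated. Lamb3, a chain of laminin 332, had 2.67 CPM (labelled-null imiquimod), 20.1 CPM (labelled-null untreated), 29.8 CPM (control imiquimod) and 12.8 CPM (control untreated). For each of these the labelled-null imiquimod library was lowest, and Lamb3 was the only member called higher in the control pair. Col17a1 was lower there in each bin of the keratin share, with 48.2, 24.02 and 18.7 CPM in labelled-null imiquimod, 424, 403 and 274 CPM in labelled-null untreated, 466, 350.0 and 188 CPM in control imiquimod and 471, 355 and 216 CPM in control untreated cells from the lowest to the highest bin. In basal keratinocytes of the labelled-null pair 6 of 13 were lower and 0 higher (median -0.85). Of all 12095 genes measured in these basal cells, 1060 were higher and 1974 lower. Cd44, the hyaluronan receptor, was the higher member, with 124 CPM with imiquimod and 51.5 CPM untreated in the labelled-null libraries. In control cells, Cd44 had 39.2 CPM with imiquimod and 38.3 CPM untreated. The rule gene Krt14 had 4439 CPM (labelled-null imiquimod), 662 CPM (labelled-null untreated), 896 CPM (control imiquimod) and 447 CPM (control untreated). Krt5, its partner, had 1549 CPM (labelled-null imiquimod), 2174 CPM (labelled-null untreated), 826 CPM (control imiquimod) and 2221 CPM (control untreated).

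Cell cycle genes were scarce in suprabasal cells. S phase had 3 of 14 measured members higher and 3 lower in the labelled-null pair (median log2 -0.21), while in basal keratinocytes of the same libraries 13 of 18 were higher and 0 lower (median 1.27). Of all 12095 genes measured in these basal cells, 1060 were higher and 1974 lower. Rrm2, a subunit of ribonucleotide reductase, had 12.2 CPM (labelled-null imiquimod), 3.55 CPM (labelled-null untreated), 3.49 CPM (control imiquimod) and 2.13 CPM (control untreated). Mcm7, of the replicative helicase, had 4.38 CPM (labelled-null imiquimod), 16.3 CPM (labelled-null untreated), 15.7 CPM (control imiquimod) and 17.02 CPM (control untreated). No S phase member was called in the control pair (13 measured) or between the untreated libraries (14 measured).

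Growth factor and wound edge genes were higher in labelled-null imiquimod cells in each member called there. They had 7 of 12 measured members higher and 0 lower in the labelled-null pair (median log2 2.27), 1 of 9 measured members higher and 0 lower in the control pair (-0.27) and 7 of 12 measured members higher and 0 lower in labelled-null imiquimod over control imiquimod cells. Hbegf, a ligand of the EGF receptor, had 75.9 CPM with imiquimod and 12.7 CPM untreated in the labelled-null libraries. In control cells, Hbegf had 15.5 CPM with imiquimod and 19.1 CPM untreated. Areg, or amphiregulin, had 30.1 CPM (labelled-null imiquimod), 3.11 CPM (labelled-null untreated), 4.88 CPM (control imiquimod) and 5.85 CPM (control untreated), with 35 of 124 labelled-null imiquimod Areg UMIs in 1 cell. Tgfa was called higher with imiquimod in both pairs, with 10.2 CPM in labelled-null imiquimod cells, 1.04 CPM in labelled-null untreated cells, 4.54 CPM in control imiquimod cells and 1.06 CPM in control untreated cells. The receptor Egfr itself was within 2-fold, with 20.9 CPM (labelled-null imiquimod), 17.8 CPM (labelled-null untreated), 12.7 CPM (control imiquimod) and 16.2 CPM (control untreated). Nrf2 targets had 4 of 11 measured members higher and 0 lower in the labelled-null pair and 0 of 9 measured members higher and 0 lower in the control pair. Slc7a11, the cystine transporter, had 20.9 CPM (labelled-null imiquimod), 0.148 CPM (labelled-null untreated), 1.40 CPM (control imiquimod) and 0 CPM (control untreated).

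Glycolysis and cholesterol synthesis stood apart. Hypoxia and glycolysis genes had 16 of 18 measured members higher and 0 lower in the labelled-null pair (median log2 1.73) and 9 of 18 measured members higher and 0 lower in the control pair (0.998). Gapdh had 1443 CPM with imiquimod and 293 CPM untreated in the labelled-null libraries. In control cells, Gapdh had 617 CPM with imiquimod and 287 CPM untreated. The level was 4.93-fold (4.68 to 5.19) and 2.15-fold (2.005 to 2.30) higher with imiquimod in the labelled-null and control pairs. Ldha, which makes lactate, had 961 CPM in labelled-null imiquimod cells, 214 CPM in labelled-null untreated cells, 388 CPM in control imiquimod cells and 200.2 CPM in control untreated cells. Hk2, the inducible hexokinase, had 43.3 CPM (labelled-null imiquimod), 5.18 CPM (labelled-null untreated), 9.25 CPM (control imiquimod) and 2.93 CPM (control untreated). Bnip3, a hypoxia target of mitophagy, was within 2-fold between the 2 imiquimod libraries, with 84.4 CPM with imiquimod and 20.6 CPM untreated in the labelled-null libraries. In control cells, Bnip3 had 107 CPM with imiquimod and 22.9 CPM untreated. Cholesterol synthesis had 14 of 14 measured members higher and 0 lower in the labelled-null pair (median 2.17), 2 of 14 measured members higher and 0 lower in the control pair (-0.32) and 12 of 14 measured members higher and 0 lower in labelled-null imiquimod over control imiquimod cells (2.11). Sqle, squalene epoxidase, had 159 CPM with imiquimod and 15.8 CPM untreated in the labelled-null libraries. In control cells, Sqle had 26.3 CPM with imiquimod and 23.7 CPM untreated. The level was 10.1-fold (8.19 to 12.5) higher in the labelled-null pair. Idi1, the isopentenyl diphosphate isomerase, had 166 CPM in labelled-null imiquimod cells, 27.4 CPM in labelled-null untreated cells, 28.6 CPM in control imiquimod cells and 37.0 CPM in control untreated cells. For both genes the labelled-null imiquimod library was highest and the other 3 lay within 2-fold of each other. Basal keratinocytes had 11 of 14 higher in the labelled-null pair, and 0 higher and 6 lower of 14 in the control pair. Of all genes measured in basal cells, 1060 were higher and 1974 lower of 12095 in the labelled-null pair. In the control pair 501 were higher and 665 lower of 11654. Immediate early and heat shock genes, which also answer cell dissociation, had 2 of 18 measured members higher and 0 lower in the labelled-null pair, 0 of 18 measured members higher and 4 lower in the control pair and 7 of 18 measured members higher and 0 lower in labelled-null imiquimod over control imiquimod cells. Atf3, a stress factor, had 367 CPM in labelled-null imiquimod cells, 250.2 CPM in labelled-null untreated cells, 144 CPM in control imiquimod cells and 439 CPM in control untreated cells.

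RNA of other cell types was present at low levels beside these results. Markers of T or NK cells summed to 126 CPM in labelled-null imiquimod, 52.5 in labelled-null untreated, 54.4 in control imiquimod and 78.5 in control untreated cells, over 6 of 9 symbols found in the gene table. Markers of macrophages or dendritic cells summed to 1115, 928, 1076 and 765 CPM and of Langerhans cells to 1326, 990, 1109 and 791 CPM in the same order. Melanocyte, bulge and outer root sheath, inner root sheath and hair shaft, sebocyte and endothelial or mural markers summed to 2.67 to 11.51, 77.4 to 136, 116 to 433, 151 to 274 and 13.4 to 93.3 CPM over the 4 libraries. Their part in the ratios was not tested.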

How the data were processed

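The deposited file is 1 matrix of raw UMI counts, 27998 genes by 23455 barcodes, that the authors made from 10x 3′ libraries with Cell Ranger 2.1.0 and mm10, per the submitters' processing notes. Whether reads were thinned to equal depth when the 4 libraries were merged is not stated in any source used here. A barcode's library was read from its suffix. Suprabasal members, gene lists and named genes were chosen with earlier results of these data known, so no pattern given here is independent support for an earlier one. Counts of the cells of a class were summed per library and divided by the total (CPM), with exact Poisson intervals for a level and exact conditional binomial intervals for a ratio, at 95%. Medians of log2 ratios have 0.5 count added to each side, and a gene at 0 in 1 library is also given as a bound against 3 counts over the group. The named genes are the 5 markers, Ovol1, for each comparison the 8 highest and 8 lowest called genes by the bound of the ratio nearest 1 among those with at least 50 CPM in the higher library (rule genes, mitochondrial, haemoglobin and sex-linked genes left out), the 12 highest and 8 lowest against basal cells by the smallest ratio, and up to 4 called members of a list per comparison with members its count turns on. Cells with single-cell counts apart, genes within 2-fold and the library-wide genes named with basal values were pointed out after their values were seen. Results of some genes are not reported here. Rule genes were left out of list counts and medians. Shares of cells with a UMI come from cells thinned to 2000 UMIs, which left out 0, 13, 9 and 6 suprabasal cells of the labelled-null imiquimod, labelled-null untreated, control imiquimod and control untreated libraries. Doublets were left in, and Scrublet, run per library with an expected rate of 0.05, called 108, 6, 87 and 120 kept cells and 1, 0, 13 and 14 suprabasal ones in that order. The symbols Cxcl11, Mx2, Cebpd, Trac, Trbc1, Trbc2 and Krt85 were not found in the gene table, Nectin4 was read as Pvrl4, and Flg was read from 1 of its 7 gene IDs. Alternatives were other scaling (TMM of edgeR 4.0.16, size factors of DESeq2 1.42.0, neither used for a test), gene minimum, cell filter, doublet removal, class lines, depth, depth matching, cell weighting and thinning. Gene positions are of GENCODE M21 (GRCm38) and promoters of RefSeq GRCm38.p6. Scripts ran in Python 3.11.15 with numpy 2.4.6, scipy 1.17.1, pandas 2.3.3, scanpy 1.11.5 and matplotlib 3.10.9, and R 4.3.3, and the ratio step was tested on simulated data.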

Additional observations from a re-analysis of the deposited data

Results flagged for a closer look

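The imiquimod over untreated ratio lay on opposite sides of 1 in the labelled-null and control libraries for the 10 named genes given here, each with 1 library per group, and the difference between the 2 ratios was not tested for any of them. Ccl27a, the skin chemokine, had a ratio of 0.0688 in the labelled-null pair and 2.56 in the control pair (log2 difference -5.22), and Pyy, peptide YY, one of 0.0674 in the labelled-null pair and 3.70 in the control pair (log2 difference -5.78). Lamb3, the laminin 332 chain, had 0.133 in the labelled-null pair and 2.34 in the control pair (log2 difference -4.14), and the cytochrome Cyp2f2 0.295 in the labelled-null pair and 4.31 in the control pair (log2 difference -3.87). Fibroblasts held 230.5, 438, 1739 and 582 CPM of Cyp2f2 in labelled-null imiquimod, labelled-null untreated, control imiquimod and control untreated skin, and the part of their RNA in it was not tested. Stfa1, a stefin with 0 UMIs in labelled-null untreated cells, had at least 112 in the labelled-null pair and 0.246 in the control pair (log2 difference 8.83, from the bound). These 5 genes are members of the programs described above or of the lowest genes under imiquimod. Fabp4 had 0.205 in the labelled-null pair and 2.32 in the control pair (log2 difference -3.50), and Tpm2, a tropomyosin, 7.57 in the labelled-null pair and 0.424 in the control pair (log2 difference 4.16), with 352 of 538 Fabp4 UMIs of labelled-null untreated cells and 146 of 218 Tpm2 UMIs of control untreated cells in 1 cell each. The remaining 3 are genes whose untreated libraries differed alike in basal keratinocytes and fibroblasts: Rps26-ps1 had 0.287 in the labelled-null pair and 5.75 in the control pair (log2 difference -4.33), AY036118 0.290 in the labelled-null pair and 2.97 in the control pair (log2 difference -3.36) and Gm10269 0.269 in the labelled-null pair and 2.02 in the control pair (log2 difference -2.91). In suprabasal and basal cells and in fibroblasts alike, these 3 were higher in labelled-null untreated and control imiquimod than in the other libraries. For Rps26-ps1, fibroblasts held 133, 340, 405 and 68.3 CPM in labelled-null imiquimod, labelled-null untreated, control imiquimod and control untreated skin.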

How the results depend on the processing

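No paired analysis was possible because each group is 1 library and the labels give no replicate numbers that pair libraries, and no replicate could be left out. Of 112 counts of called genes in the 4 comparisons and their alternatives, 96 lay within 1.5 times the count in the report. With at least 100 UMIs per gene, 526 genes were higher and 943 lower in labelled-null imiquimod over labelled-null untreated cells, 205 and 109 in control imiquimod over control untreated, 72 and 19 in labelled-null untreated over control untreated, 424 and 552 in labelled-null imiquimod over control imiquimod, and 119 and 212 in suprabasal over basal cells, since fewer genes are measured. With cells matched on UMIs (107 labelled-null imiquimod cells and as many labelled-null untreated cells), 553 were higher and 770 lower in the labelled-null pair, and 517 were lower in labelled-null imiquimod over control imiquimod cells, from fewer cells. With cells of at most 2 fibroblast genes, an alternative chosen after seeing the data, 923 were lower in the labelled-null pair, 257 in the control pair and 774 in labelled-null imiquimod over control imiquimod, and 126 were higher over basal cells. Of the 241 genes higher and 105 lower in labelled-null untreated over control untreated cells, 43 and 12 were called in that direction there too, and 2 in the other. With Scrublet calls left out 454 were higher in labelled-null untreated over control untreated cells, and with at least 5 UMIs per gene 159 were lower; the cause of the first was not tested.

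The suprabasal share of keratinocytes was 10.3% in labelled-null imiquimod, 28.5% in labelled-null untreated, 21.02% in control imiquimod and 23.03% in control untreated skin with Krt1 and Krt10 at least 2 times Krt5 and Krt14. It was 25.3% in labelled-null untreated, 17.6% in control imiquimod and 23.6% in control untreated skin with Krt79 under 1 UMI per 10000, and 25.2%, 17.6% and 22.8% in these with at most 2 fibroblast genes. With at least 3100 UMIs per cell it was 26.6% in control imiquimod and 28.8% in control untreated skin. The labelled-null imiquimod share was the lowest of the 4 in the report and under each of these alternatives.

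Of the log2 ratios of named genes under the alternatives, 2896 stayed within their counting error, 618 moved beyond it, and 22 of called genes turned direction, none of these under TMM or DESeq2 scaling. Over all results, 171 moved in matched cells and 154 with at most 2 fibroblast genes. With at most 2 fibroblast genes, log2 ratios became -0.19 for Ier3 in the labelled-null pair; 0.34 for Acta2, -1.81 for Lce1a1 and Lce1m, -0.96 for Cxcl1 and 0.25 for Id2 in the control pair; 1.92 for Tpm2, 1.09 for Acta2 and 0.43 for Lyz1 in labelled-null untreated over control untreated; and -0.24 for Tnc in labelled-null imiquimod over control imiquimod. With the highest cell of each gene left out they became 0.12 for Acta2 and -0.12 for Lce1a1 in the control pair, and 2.20 for Acta2 and 0.25 for Lyz1 between the untreated libraries. Under the stricter Krt79 line they were -1.94 for Lce1a1 and -0.35 for Lce1m in the control pair. In matched cells they were -0.29 for Tubb4b in the labelled-null pair, -0.67 for Lce1a1 and -0.14 for Mvd in the control pair, and -0.094 for Jun between the imiquimod libraries. Cdsn was at -0.15 in the labelled-null pair without the top 5% of Scrublet scores, and S100a8 at -0.26 between the untreated libraries under the stricter cell filter. The cause was not tested beyond what each alternative leaves out. Depth limits the genes at 0 to 3 counts: a count of 0 allows up to 0.729, 0.444, 0.523 and 0.798 CPM in labelled-null imiquimod, labelled-null untreated, control imiquimod and control untreated cells.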
